A study of Mus musculus with 3 samples.

Results

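The genes described here are 10 components of the switch that takes a cell from G1 into DNA replication: the D cyclins Ccnd1, Ccnd2 and Ccnd3, their kinases Cdk4 and Cdk6, the retinoblastoma gene Rb1, the transcription factor E2f1, the E cyclins Ccne1 and Ccne2, and the inhibitor Cdkn1b. They were taken by symbol from a UMI count matrix of 32287 features, and all 10 were found. The cells, called PC, came from esophageal organoids (three-dimensional cultures of esophageal epithelium) of mice carrying floxed Trp53 alleles. Trp53 was deleted with Ad-Cre-EGFP, an adenovirus carrying Cre and a green fluorescent protein, and Cdkn2a, which encodes the inhibitors p16 and p19Arf, was then knocked out with CRISPR/Cas9. The cells expressed Cas9 throughout, were transfected with a barcode library, were grown for 3 passages and were sorted as live RFP-positive cells, of which about 20000 were recovered per the labels. The line as a whole thus has the Trp53 deletion, the Cdkn2a knockout, Cas9 and the dissociated culture in common. Whether each cell carries both edits was not tested, and there was no untreated or unedited control. A PCN line made with a Notch1 knockout was not analysed here.

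D cyclins bind and activate CDK4 and CDK6 in response to growth signals. These kinases phosphorylate the RB protein, which otherwise holds E2F transcription factors back from their target genes. Once released, E2F drives the E cyclins and the enzymes and helicase subunits of DNA replication, and cyclin E with CDK2 phosphorylates RB further. Inhibitors of the INK4 class, which includes p16, block CDK4 and CDK6, and p27, the product of Cdkn1b, restrains cyclin-CDK complexes. Amplification of CCND1 and loss of CDKN2A are recurrent in human esophageal squamous carcinoma.

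The matrix held 18116 barcodes, and 14925 cells were kept, after barcodes under 500 genes, under 1000 UMIs or over 20% mitochondrial UMIs were removed. A UMI marks 1 captured RNA molecule. The kept cells had 45443280 UMIs in all and a median of 2955 UMIs and 1499 genes per cell. There was 1 sample, so no difference could be set against the spread between cultures, and no test or p-value is given. Levels are UMIs of a gene per 1000000 UMIs of a class of cells (CPM), and all intervals are exact 95% intervals that cover counting error only. A gene was counted as past the fold between classes at a CPM ratio of at least 2, at least 10 CPM in the higher class and at least 20 UMIs in both together.

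Cells were classed by their UMIs of 17 mesenchymal and 13 epithelial marker genes. Of the kept cells, 12324 (82.6%) were epithelial-marker cells, 1429 (9.57%) mesenchymal-marker cells and 375 (2.51%) carried both sets, while 797 (5.34%) had few markers. The epithelial-marker cells had Krt14 at 1332 CPM, Epcam at 1280.4 CPM and Trp63, a regulator of squamous basal cells, at 163 CPM, but Krt13 of differentiated esophageal epithelium at only 7.51 CPM. The mesenchymal-marker cells had Vim at 1234 CPM, Col1a1 at 347 CPM and Aebp1 at 127 CPM. In the same cells Col1a2 was at 0.821 CPM, Prrx1 at 0.821 CPM and Cdh2 at 0.410 CPM, and Lum, at 0 UMIs, was not detected in any cell. Twist1 was at 1.64 CPM there and 1.99 CPM in epithelial-marker cells, so the class rests on part of the list. Epithelial Krt14 was at 121 CPM in the mesenchymal-marker cells. Markers left out of the classification followed it: Krt5 was at 739 CPM in epithelial-marker and 6.77 CPM in mesenchymal-marker cells, and Col5a1 was at 0.769 and 159 CPM. Summed immune markers were at 7.27 CPM in epithelial-marker and 13.7 CPM in mesenchymal-marker cells and endothelial markers at 1.72 and 0.615 CPM. The cells with both marker sets had a median of 4109 UMIs, against 2946 in epithelial-marker and 3317 in mesenchymal-marker cells. No doublets were removed.

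Cycling cells were those with a UMI of Top2a, which untangles replicated DNA, or of Cdk1, the mitotic kinase. They made up 21.8% (21.1 to 22.5) of epithelial-marker and 14.6% (12.8 to 16.5) of mesenchymal-marker cells. With every cell thinned at random to 1500 UMIs these shares were 16.4% (15.8 to 17.1) and 7.82% (6.48 to 9.34), with 1127 and 10 shallower cells left out. Mcm5, a subunit of the replication helicase, had only 189 UMIs in 179 cells and marked few cells on its own. Cells without a UMI of the 3 genes are called cells without a cycling-marker UMI, and at this depth some of them may have been cycling.

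The promoters of Cdk4 and Ccne1 are shown because Cdk4 differed less between the lineages than Cdk6 did, and Ccne1 was an E cyclin with higher levels in cycling cells. RefSeq promoter entries (GRCm38.p6) matched 6 of the 10 genes. The 200 bases from 250 to 51 before the start of the RefSeq entry are given, 5′ to 3′ on the strand of the gene. That start can differ from the GENCODE start printed below, as it does for Ccne1. Each CACGTG (the E-box bound by Myc family factors) is in capitals. Both windows lie upstream of their gene and outside annotated gene models. The Cdk4 window is at chr10:127063285-127063484 on the plus strand and the Ccne1 window at chr7:38107541-38107740 on the minus strand.
Cdk4: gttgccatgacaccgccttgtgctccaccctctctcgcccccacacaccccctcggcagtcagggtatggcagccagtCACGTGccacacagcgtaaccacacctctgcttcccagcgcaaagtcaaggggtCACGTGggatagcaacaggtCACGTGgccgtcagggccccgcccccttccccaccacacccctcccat
Ccne1: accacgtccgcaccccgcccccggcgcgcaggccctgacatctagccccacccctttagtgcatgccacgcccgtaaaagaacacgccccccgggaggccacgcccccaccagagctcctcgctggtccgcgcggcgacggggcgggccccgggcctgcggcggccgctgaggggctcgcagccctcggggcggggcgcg
The Cdk4 window held CACGTG 3 times. The Cdk6 window, which is not printed and overlaps an annotated gene model, held it 1 time. The windows of Ccnd3, E2f1 and Cdkn1b held it 0 times. Of 32851 RefSeq promoter windows of the same length, 4.34% held it at least once and 8 held it at least 3 times. The Ccne1 window held none of the words searched on both strands, which were CACGTG, the E2F words TTTCCCGC, TTTCGCGC, TTTGCCGC and TTTGGCGC (present in 1.46% of windows), the shorter GGCGGGA (6.87%) and the AP-1 word TGANTCA (5.57%). These are matches of letters and say nothing about binding.

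The D cyclins differed between the lineages, and not all in the same direction. Ccnd1 (ENSMUSG00000070348, chromosome 7, 144929931 to 144939925, minus strand in GENCODE M21 on GRCm38) was at 238 CPM (233.5 to 243) in epithelial-marker cells and 76.9 CPM in mesenchymal-marker cells, a ratio of 0.323 (0.290 to 0.358). Ccnd2 (ENSMUSG00000000184, chromosome 6, 127125162 to 127152193, minus strand) was at 474 CPM in epithelial-marker and 291 CPM in mesenchymal-marker cells, a ratio of 0.614 (0.581 to 0.648). Ccnd3 (ENSMUSG00000034165, chromosome 17, 47505051 to 47599691, plus strand), the least captured of the D cyclins, went the other way, from 26.0 to 39.0 CPM, a ratio of 1.4996 (1.28 to 1.75). Of the 10 genes only Ccnd1 was past the fold, as were 14.8% of the 14056 genes with enough UMIs, 7.43% being higher and 7.35% lower in mesenchymal-marker cells. The summed epithelial markers were at 4495 CPM in epithelial-marker cells and 243 CPM in mesenchymal-marker cells, and their part in the Ccnd1 level of the latter was not tested.

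**Figure D1:**
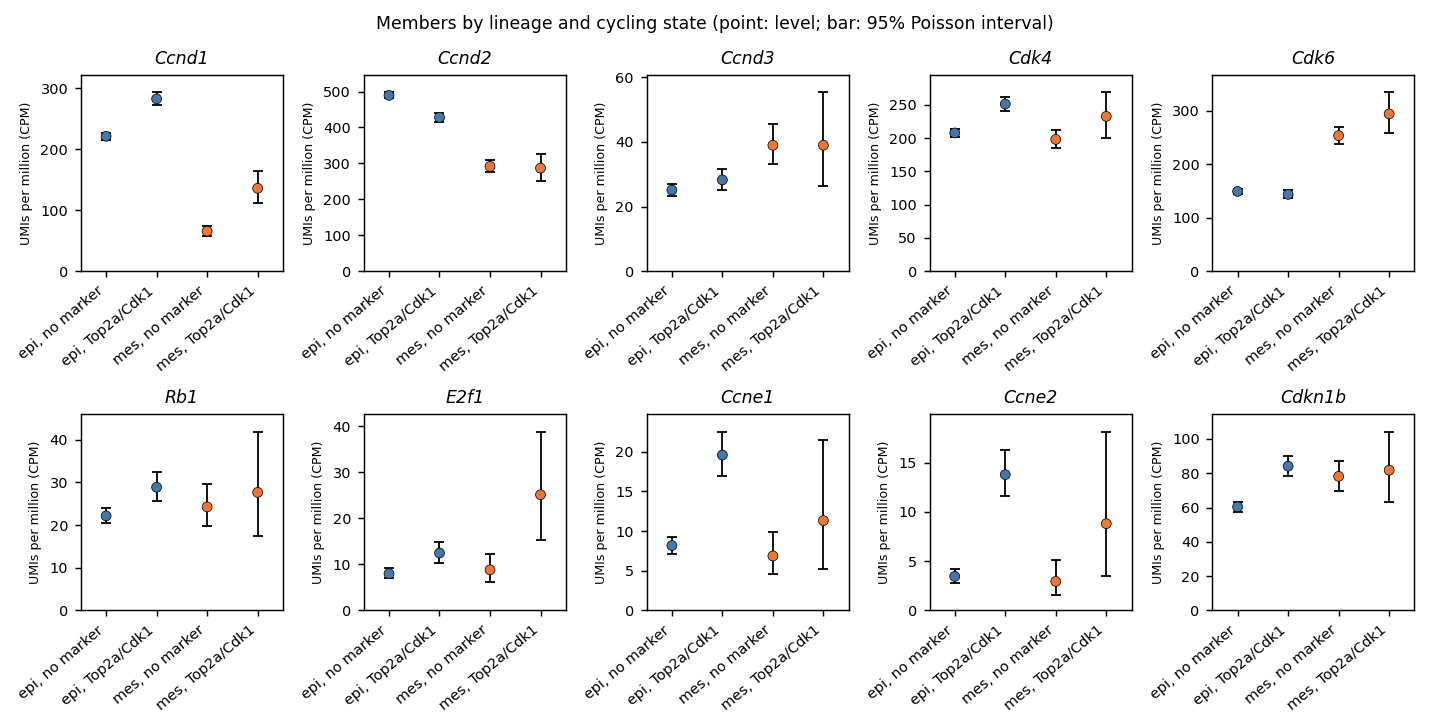
Level of each gene in UMIs per 1000000 (CPM, axes from 0) in epithelial-marker (epi, blue) and mesenchymal-marker (mes, orange) cells, without a cycling-marker UMI or with a UMI of Top2a or Cdk1; bars are exact 95% Poisson intervals over 1 sample. Without a cycling-marker UMI Ccnd1 was at 221 CPM in epithelial-marker and 65.5 CPM in mesenchymal-marker cells, while Ccne1 and Ccne2 stand highest in the cycling epithelial-marker cells.

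The lineage difference was also present among cells without a cycling-marker UMI, 9590 epithelial-marker and 1221 mesenchymal-marker cells. There Ccnd1 was at 221 and 65.5 CPM, a ratio of 0.296 (0.261 to 0.335), and Ccnd2 at 489 and 292 CPM, a ratio of 0.596 (0.561 to 0.633). Ccnd3 was at 25.1 and 39.0 CPM, a ratio of 1.55 (1.30 to 1.85). Ccnd1 was again the only one of the 10 past the fold, against 14.8% of 13565 genes in either direction, 7.67% higher and 7.11% lower in mesenchymal-marker cells. In cells thinned to 1500 UMIs, 26.1% of epithelial-marker and 9.87% of mesenchymal-marker cells held a Ccnd1 UMI (42.0% and 18.4% before thinning). Among epithelial genes, mesenchymal-marker cells held a UMI of Krt14 in 33.0% and of Dsp in 12.2% of cells before thinning. Lower shares were those of Cdh3 (8.05%), Lamb3 (5.18%), Epcam (2.59%), Krt5 (1.96%) and Cdh1 (0.980%). Of the 13 epithelial markers only Krt14 had a larger share than Ccnd1. The class rule limits UMIs of these 13 markers and not of Ccnd1, so this ranking was partly set in advance. Mesenchymal-marker cells without an epithelial or cycling-marker UMI had Ccnd1 at 54.7 CPM. For Ccnd2 the thinned shares were 47.7% and 32.1%, and for Ccnd3 3.65% and 5.07%.

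**Figure D2:**
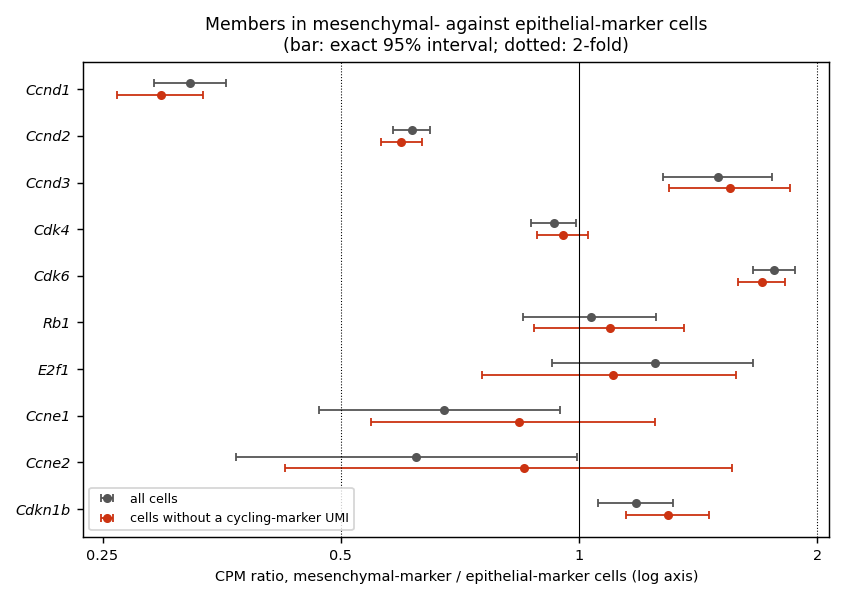
CPM ratio of mesenchymal-marker to epithelial-marker cells for each gene (log axis), over all cells (grey) and over cells without a cycling-marker UMI (red), with exact 95% intervals and dotted lines at 2-fold. Ccnd1 lies beyond the 2-fold line at 0.323 and 0.296, Ccnd2 lies below 1, Cdk6 and Ccnd3 lie above 1, and the intervals of Rb1 and E2f1 include 1.

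The make-up of the D cyclin pool differed accordingly. Ccnd1 supplied 32.3% (31.8 to 32.9) of D cyclin UMIs in epithelial-marker cells, 25.2% (22.5 to 28.1) in cells with both marker sets and 18.9% (17.2 to 20.7) in mesenchymal-marker cells. Ccnd3 supplied 3.52% (3.31 to 3.75), 4.92% (3.63 to 6.48) and 9.58% (8.32 to 10.96) in the same order. The kit captures RNA near its 3′ end and genes can differ in capture, so these shares are set against each other between classes and not between genes.

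Across bins of mesenchymal marker UMIs per cell, Ccnd1 was at 233 CPM in cells with 0 and 245 CPM in cells with 1. It was then at 158.5 CPM with 2, 94.2 CPM with 3 to 5, 75.8 CPM with 6 to 10 and 104 CPM (84.6 to 126) with 11 or more. The step lay between 1 and 3 marker UMIs, and the highest bin was not the lowest in Ccnd1. Ccnd2 stood at 468 CPM with 0 and 294 CPM with 6 to 10 marker UMIs, and Ccnd3 at 25.7 and 37.7 CPM. Cdk6 was at 148 CPM with 0, 188.5 CPM with 1, 216 CPM with 2 and 256 CPM in each of the bins from 3 upward. Summed epithelial markers went from 4431 CPM in the first bin to 330 CPM in the last, and the share of cells with Top2a or Cdk1 from 21.2% to 18.8%, with 14.4% in the bin of 3 to 5.

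**Figure D3:**
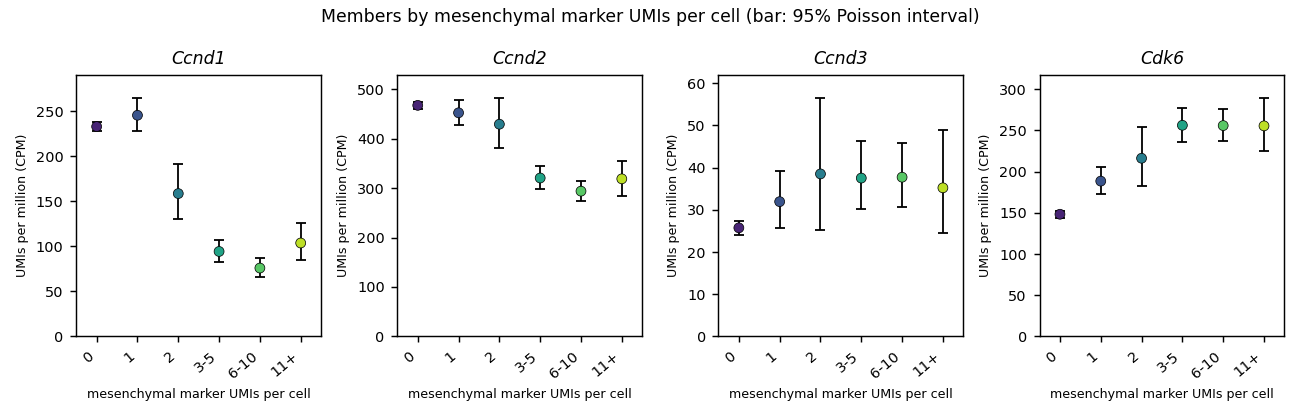
Levels of Ccnd1, Ccnd2, Ccnd3 and Cdk6 in UMIs per 1000000 (CPM, axes from 0) over all kept cells binned by summed UMIs of 17 mesenchymal markers, with exact 95% Poisson intervals. Ccnd1 is at 233 CPM with no marker UMI and 75.8 CPM with 6 to 10, whereas Cdk6 goes from 148 to 256 CPM.

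The kinases behaved differently from each other. Cdk6 (ENSMUSG00000040274, chromosome 5, 3341485 to 3531008, plus strand) was at 148 CPM in epithelial-marker and 260.4 CPM in mesenchymal-marker cells, a ratio of 1.76 (1.66 to 1.88). Cdk4 (ENSMUSG00000006728, chromosome 10, 127063534 to 127067920, plus strand) was at 219 and 204 CPM, a ratio of 0.928 (0.868 to 0.992). Cdk6 thus made up 40.2% (39.4 to 41.0) of the Cdk4 plus Cdk6 UMIs in epithelial-marker cells and 56.1% (54.0 to 58.2) in mesenchymal-marker cells, with 52.2% (48.2 to 56.1) in cells with both marker sets. Without a cycling-marker UMI the Cdk6 ratio was 1.70 (1.59 to 1.82) and the Cdk4 ratio 0.953 (0.884 to 1.03). Thinned cells held a Cdk6 UMI in 19.3% of epithelial-marker and 30.8% of mesenchymal-marker cells. Of the 4 lineage classes Cdk6 was highest, at 289 CPM (261 to 320), in the cells with few markers, though cycling mesenchymal-marker cells had it at 294 CPM (258 to 335). The median depth of the cells with few markers was 1302 UMIs and their median mitochondrial share was 6.56%.

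Rb1, E2f1 and Cdkn1b differed less between the lineages. Rb1 (ENSMUSG00000022105, chromosome 14, 73183673 to 73325822, minus strand) was at 24.0 CPM in epithelial-marker and 24.8 CPM in mesenchymal-marker cells, a ratio of 1.03 (0.848 to 1.25). E2f1 (ENSMUSG00000027490, chromosome 2, 154559407 to 154569892, minus strand) was at 9.20 and 11.5 CPM from 347 and 56 UMIs, a ratio of 1.25 (0.924 to 1.66). Cdkn1b (ENSMUSG00000003031, chromosome 6, 134920401 to 134925513, plus strand) was at 66.7 and 78.8 CPM, a ratio of 1.18 (1.06 to 1.31). Among cells without a cycling-marker UMI its ratio was 1.29 (1.14 to 1.46).

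The E cyclins were lower in mesenchymal-marker cells as a whole, but not clearly so among cells without a cycling-marker UMI. Ccne1 (ENSMUSG00000002068, chromosome 7, 38097984 to 38107534, minus strand) was at 11.2 CPM in epithelial-marker and 7.59 CPM in mesenchymal-marker cells, a ratio of 0.675 (0.469 to 0.946). Ccne2 (ENSMUSG00000028212, chromosome 4, 11191351 to 11204779, plus strand) was at 6.26 and 3.90 CPM, a ratio of 0.623 (0.368 to 0.994) from 19 UMIs in the mesenchymal-marker cells. Among cells without a cycling-marker UMI the ratios were 0.840 (0.546 to 1.25) for Ccne1 and 0.852 (0.425 to 1.56) for Ccne2. Both intervals include 1 and also include a lower level of the size seen over all cells. With cells thinned to 1500 UMIs and classed anew from the thinned counts these ratios were 0.327 for Ccne1 and 1.44 for Ccne2. With the full-depth classes kept, thinned mesenchymal-marker and epithelial-marker cells averaged 0.0074 and 0.0137 Ccne1 UMIs. Their Ccne2 means were 0.0066 and 0.0056. In mesenchymal-marker cells without an epithelial marker UMI the unthinned Ccne2 ratio was 0.490.

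Within epithelial-marker cells the E cyclins carried the largest differences with cycling state. In the 2685 cells with Top2a or Cdk1, Ccne1 was at 19.6 CPM against 8.17 CPM in the 9590 without a cycling-marker UMI, a ratio of 2.40 (1.97 to 2.91). Ccne2 was at 13.8 against 3.45 CPM, a ratio of 3.995 (3.05 to 5.24). These 2 of the 10 genes were past the fold, where 3.23% of 13640 genes were, 3.03% being higher and 0.205% lower in cycling cells. E2f1 had a ratio of 1.56 (1.24 to 1.96), Cdkn1b of 1.39 (1.28 to 1.51), Rb1 of 1.30 (1.13 to 1.501), Ccnd1 of 1.28 (1.22 to 1.34) and Cdk4 of 1.21 (1.15 to 1.27). Ccnd2, at 428 against 489 CPM, was the only gene of the 10 whose interval lay below 1, with a ratio of 0.875 (0.845 to 0.905). Ccnd3 at 1.13 (0.977 to 1.30) and Cdk6 at 0.963 (0.906 to 1.02) had intervals that include 1. The cycling cells held a median of 3608 UMIs and the others 2806.

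In mesenchymal-marker cells the pattern was measured in 208 cycling cells only. Ccnd1 was at 136 CPM in these and 65.5 CPM in the 1221 without a cycling-marker UMI, a ratio of 2.08 (1.64 to 2.61). E2f1 was at 25.2 against 8.82 CPM, a ratio of 2.85 (1.56 to 5.06) from 20 and 36 UMIs. These 2 genes were past the fold, against 4.1% of 10347 genes, 2.75% higher and 1.34% lower in cycling cells. Ccne2 had a ratio of 2.99 (0.999 to 8.25) from 7 and 12 UMIs and Ccne1 of 1.65 (0.685 to 3.60) from 9 and 28 UMIs. Ccnd2 at 0.983 (0.850 to 1.13), Ccnd3 at 1.00 (0.658 to 1.48), Cdk6 at 1.16 (1.00 to 1.34), Cdk4 at 1.18 (0.996 to 1.38), Rb1 at 1.14 (0.684 to 1.82) and Cdkn1b at 1.05 (0.788 to 1.37) did not pass the fold. With cells thinned to 1500 UMIs and classed anew the Ccnd1 ratio was 1.40. With the full-depth classes kept, thinned cells averaged 0.163 Ccnd1 UMIs in the cycling class and 0.103 in the other. Without the 10% of cells with the most UMIs the ratios were 1.79 for Ccnd1 and 1.96 for E2f1. Epithelial markers summed to 257 CPM in the cycling and 240.2 CPM in the other mesenchymal-marker cells. Between the lineages the difference in these ratios was not tested.

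Cells marked by Mcm5 alone numbered 49 among epithelial-marker cells and 0 among mesenchymal-marker cells. In the 49, Ccnd1 was at 443 CPM against 221 CPM without a cycling-marker UMI, a ratio of 2.005 (1.57 to 2.53). Under alternative processing settings this Ccnd1 ratio ran from 1.61 to 2.03. Ccne1 and Ccne2, with 3 UMIs each, had ratios of 2.26 (0.463 to 6.69) and 5.35 (1.08 to 16.1). These 3 of the 10 genes were past the fold, where 15.7% of 13127 genes were, 7.24% higher and 8.43% lower in the Mcm5-only cells. The count of members past the fold ran from 2 to 6 under the alternatives.

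Because Mcm5 was so sparse, epithelial-marker cells were also classed by lists of 13 replication genes and 14 mitosis genes, classes chosen after the data were seen. There were 370 cells with replication genes alone, 1046 with both lists, 1175 with mitosis genes alone and 7576 with neither. Their median depths were 3242, 4121.5, 3232 and 2742 UMIs in the same order. Many genes that define these classes are E2F targets, and leaving them out took a pathway list of such targets from 20 to 7 genes. Levels of other E2F targets, such as the E cyclins, are thus not independent of the class rule. The genes took different courses over these classes. E2f1 was at 7.37 CPM in cells with neither, 23.2 CPM with replication genes, 14.4 CPM with both and 6.97 CPM with mitosis genes. Ccne2 was at 2.74, 19.2, 22.7 and 4.48 CPM in the same order, and Ccne1 at 8.69, 17.6, 28.4 and 9.71 CPM. E2f1 was thus highest with replication genes alone and the E cyclins with both lists, though for each gene the intervals of those classes overlap. All 3 genes were lower in cells with mitosis genes alone than in cells with both lists.

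**Figure D4:**
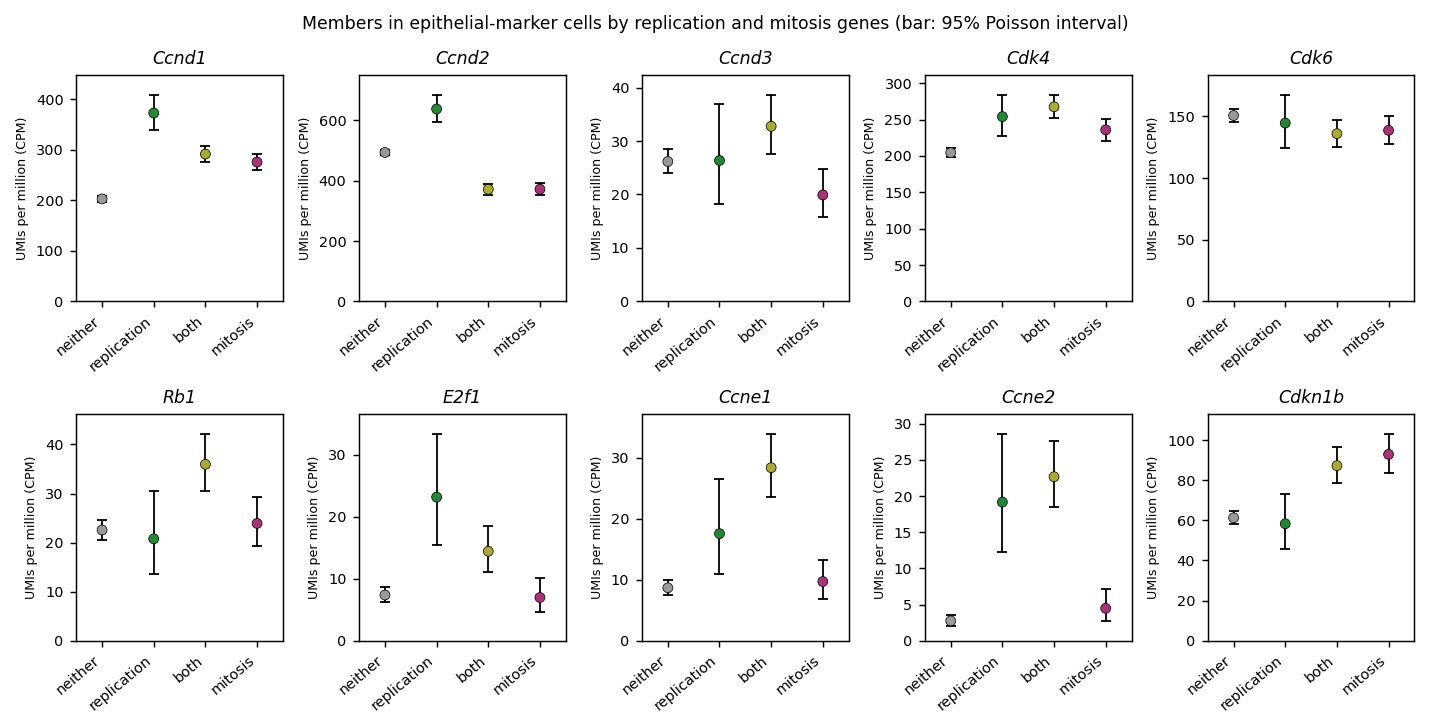
Levels in UMIs per 1000000 (CPM, axes from 0) in epithelial-marker cells with neither list (grey), replication genes (green), both lists (olive) or mitosis genes (purple), with exact 95% Poisson intervals. E2f1, Ccne1 and Ccne2 are higher with replication genes or both lists than with neither, and Ccnd1 and Ccnd2 are highest with replication genes alone. Cdkn1b is at 92.9 CPM with mitosis genes and 87.3 CPM with both lists, with overlapping intervals.

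Against cells with neither list, replication-gene cells had E2f1 at a ratio of 3.14 (2.04 to 4.70), Ccne1 at 2.02 (1.24 to 3.16) and Ccne2 at 6.999 (4.16 to 11.4). These 3 genes were past the fold, against 3.62% of 12774 genes, 2.6% higher and 1.02% lower. Ccnd1 was at 373 against 203 CPM, a ratio of 1.84 (1.67 to 2.02), and Ccnd2 at 637 against 493 CPM, a ratio of 1.29 (1.20 to 1.39). Mitosis-gene cells against replication-gene cells had E2f1 at 0.301 (0.173 to 0.524) and Ccne2 at 0.234 (0.120 to 0.449), both past the fold, where 3.88% of 10528 genes were, 2.66% higher and 1.22% lower. In that comparison Ccnd2 was at 372 against 637 CPM, a ratio of 0.583 (0.535 to 0.636), and cells with both lists had it at 371 CPM. Cdkn1b went the other way, with 92.9 CPM in mitosis-gene and 58.3 CPM in replication-gene cells, a ratio of 1.59 (1.24 to 2.08). Under alternative processing settings this Cdkn1b ratio ran from 1.05 to 1.62. Rb1 was at 36.0 CPM with both lists and between 20.8 and 23.9 CPM in the other classes. Cdk6 stayed between 136 and 151 CPM in all 4 classes.

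The wider pathway was described by 6 lists with 68 genes. In cycling epithelial-marker cells 33 of them were past the fold and higher and 0 lower, where 3.03% of all genes with enough UMIs were higher and 0.205% lower. All 20 E2F target genes of DNA replication were among the 33, with a median ratio of 5.05 against 0.972 over all genes, as were 8 of 12 later cyclins and their partners. The largest ratios were those of Ccna2 (71.5 against 2.47 CPM, ratio 29.0), which partners CDK2 and CDK1, of Ccnb1 (ratio 25.7), the mitotic cyclin, and of Ccnf (ratio 17.3). Of 11 mitogen and growth inputs, such as Myc and Egfr, 0 passed. In cycling mesenchymal-marker cells 18 of 60 genes with enough UMIs were higher and 0 lower, against 2.75% and 1.34% of all genes. They were led by Ccna2 (ratio 34.6 from 27 and 4 UMIs), Rrm2 (18.8), a subunit of ribonucleotide reductase, and Ccnb1 (17.96). Among replication-gene cells E2f8 (26.0 from 20 and 13 UMIs), Tyms (6.36) and Fen1 (5.55) led the higher genes, and Cdkn2b was lower at a ratio of 0.499. Ccna2 (7.50), Ccnf (5.86 from 94 and 5 UMIs) and Cdkn2d (5.01) led those higher in mitosis-gene than in replication-gene cells, and E2f7 was lower at 0.408 from 17 and 13 UMIs. In the Mcm5-only cells the higher genes included Mcm3 and Uhrf1, with 9 and 14 UMIs, and the lower genes Fos and Fbxo4 had 1 and 2.

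Between the lineages, the E2F target list was lower in mesenchymal-marker cells over all cells and not among cells without a cycling-marker UMI. Over all cells 6 of 20 were lower and 1 higher, where 7.35% and 7.43% of all genes were, and the median ratio was 0.547, against 0.942 over all genes. Without a cycling-marker UMI 1 was lower and 1 higher, where 7.11% and 7.67% of all genes were, with a median of 0.947 against 0.959. Fen1, a flap endonuclease of replication, had a ratio of 0.228 over all cells and Ccna2 of 0.305. Mcm7 was the gene lower among cells without a cycling-marker UMI, with 10.8 against 28.6 CPM, and Dut, which clears dUTP, was the one higher, with 540 against 85.1 CPM, a ratio of 6.34 (5.98 to 6.73). Tead1, a partner of YAP, was at 257 against 104 CPM, a ratio of 2.48 (2.30 to 2.66), and the immediate early gene Fos at 7.35 against 21.3 CPM, a ratio of 0.345.

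The CDK inhibitors differed between the lineages in both directions. Of the 6 listed beside Cdkn1b, 3 were past the fold and higher and 1 lower among cells without a cycling-marker UMI. There 7.67% and 7.11% of all genes were. Over all cells 2 were higher and 1 lower, where 7.43% and 7.35% of all genes were. Among cells without a cycling-marker UMI the INK4 genes were all higher in mesenchymal-marker cells: Cdkn2c at a ratio of 4.16 (3.29 to 5.24), Cdkn2a at 2.16 (2.10 to 2.23), Cdkn2d at 2.14 (1.82 to 2.51) and, short of the fold, Cdkn2b at 1.52 (1.43 to 1.61). Cdkn1a, which encodes the p53 target p21, was at 4.17 CPM in mesenchymal-marker and 90.7 CPM in epithelial-marker cells, a ratio of 0.0459 (0.0267 to 0.0737). Its relative Cdkn1b, at 1.29, did not share that difference, and Cdkn1c had 5 and 42 UMIs. Cdkn2a was at 1268 and 586 CPM although the line was made as a knockout, and UMIs from the 3′ end of the gene do not show whether the edited copies still encode protein. In cycling epithelial-marker cells Cdkn2d (ratio 3.68) and Cdkn2c (3.31) were higher, while Cdkn2a (0.751) and Cdkn2b (0.611) were below 1 without passing the fold.

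**Figure D5:**
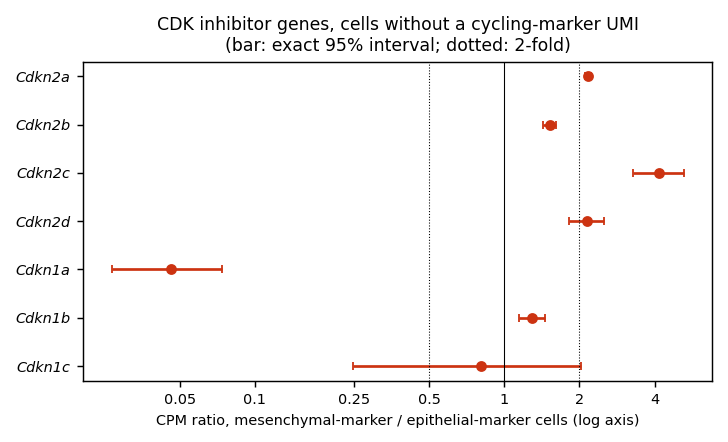
CPM ratio of mesenchymal-marker to epithelial-marker cells for CDK inhibitor genes (log axis), among cells without a cycling-marker UMI, with exact 95% intervals and dotted lines at 2-fold. The Cdkn2 genes lie above 1, Cdkn1b lies at 1.29, and Cdkn1a lies at 0.0459.

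From cell to cell, Ccnd1 and Ccnd2 varied more for their mean than Cdk4, Cdk6 and Cdkn1b did, over cells of all lineages together. With cells thinned to 1500 UMIs the variance of UMIs per cell divided by their mean (1 where counts are Poisson) was 1.31 for Ccnd1 and 1.27 for Ccnd2. Within epithelial-marker cells alone it was 1.30 for Ccnd1 and 1.26 for Ccnd2. For the other 8 genes it lay between 0.995 and 1.07 over all lineages. Of these, Ccnd3, Rb1, E2f1, Ccne1 and Ccne2 averaged 0.00896 to 0.0395 UMIs per cell, too few to tell their spread from counting. The median of 2624 genes averaging 0.1 UMIs per cell or more was 1.05, with a 95th percentile of 1.58. Both D cyclins thus lie within the range of these 2624 genes. In epithelial-marker cells Ccnd1 was found in 27.9% (26.7 to 29.1) of thinned cells with a Ccnd2 UMI and 24.6% (23.5 to 25.7) of those without. In mesenchymal-marker cells the shares were 9.89% and 9.85%. With and without a Cdk4 UMI, Ccnd1 was found in 26.1% and 26.2% of epithelial-marker cells. Of the thinned epithelial-marker cells 13.3% held UMIs of both D cyclins and 60.6% of at least 1.

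Epithelial-marker cells without a cycling-marker UMI, thinned to 1500 UMIs, were also split by 10 genes. High cells were at or above the 90th percentile of the gene and held at least 1 UMI of it, and low cells were at or below its median. For 7 of the 10 genes, Ltf among them, this came to cells with a UMI against cells with 0. This gave 100 ratios for the members, of which 3 were past the fold, and the splits were chosen after the data were seen. The share of all genes past the fold was 7.34% for Ltf, 5.26% for Ly6d, 3.52% for Malat1, 3.29% for Wfdc18, 2.83% for Lcn2, 1.64% for Krt7, 1.11% for Prl2c2 and 0.837% for Ccl2. For Spp1 it was 0.787% and for Ch25h 0.963%. Ccnd3 was higher in cells high in Ltf, which encodes the secreted iron-binding protein lactotransferrin, with 46.1 against 22.5 CPM, a ratio of 2.05 (1.36 to 2.97). Cells high in Ly6d had Ccnd3 at a ratio of 1.95 (1.43 to 2.63) and cells high in Lcn2 at 1.66 (1.24 to 2.20). In Ltf-high and Ly6d-high cells Cdk4 had ratios of 0.668 (0.540 to 0.817) and 0.684 (0.595 to 0.784), and Ccnd2 of 0.766 (0.673 to 0.868) and 0.749 (0.686 to 0.817). In Lcn2-high cells Cdk4 was at 0.784 (0.694 to 0.884) and Ccnd2 at 0.803 (0.741 to 0.868). Cells high in Malat1 and Spp1 had Cdk4 at 0.844 and 0.871 and Ccnd2 at 0.718 and 0.839. Their Ccnd3 intervals, 0.835 to 1.75 and 0.788 to 1.46, include 1. Ccl2-high and Prl2c2-high cells did not share this order: Cdk4 was lower (0.857 and 0.868), but Ccnd2 was at 1.09 and 1.15. There Ccnd3 had ratios of 0.775 (0.541 to 1.08) and 0.726 (0.474 to 1.07). Ch25h-high cells also had lower Cdk4, at 0.791 (0.698 to 0.893). Their Ccnd2 and Ccnd3 ratios, 0.930 (0.861 to 1.003) and 1.07 (0.752 to 1.48), had intervals that include 1. In Krt7-high and Wfdc18-high cells Cdk4 was at 1.14 and 1.02 and Ccnd2 at 1.06 in each. The median mitochondrial share was 4.03% in Ltf-high against 2.75% in Ltf-low cells, 3.33% against 2.70% for Ly6d and 3.51% against 2.71% for Lcn2, and its part in these ratios was not tested.

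In cells high in Malat1, a nuclear noncoding RNA, Ccnd1 was at 148 against 260.2 CPM, a ratio of 0.569 (0.488 to 0.661), and Ccnd2 at 385 against 536 CPM, a ratio of 0.718 (0.653 to 0.789). The median mitochondrial share was 3.37% in Malat1-high and 2.57% in Malat1-low cells, and its part was not tested. Ccne1 had 4 UMIs in those cells, a ratio of 0.301 (0.0797 to 0.807), past the fold. Cells high in Krt7, a simple epithelial keratin, had Ccne1 at 16.8 against 8.12 CPM, a ratio of 2.06 (1.27 to 3.24), past the fold. Rb1 was at 12.1 against 23.4 CPM in the same split, a ratio of 0.516 (0.301 to 0.831), short of the fold.

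Genes with the profile most like each member were sought over 7 classes of lineage by cycling state, among 5946 genes, by Pearson r of log2(CPM + 1). With 7 points from 1 library high values are common, and they are given as a description. For Ccnd1 the nearest were Kmt5a (0.992), Dusp14 (0.990) and Pus1 (0.990), and 43 genes reached 0.95. Ccnd2 was nearest to Crip1 (0.992), Cdk4 to Tubb5 (0.998), Cdk6 to Atf6 (0.995), Ccnd3 to Slc4a7 (0.982) and Rb1 to Usp37 (0.977). Ccne1 was nearest to Tmem107 (0.993), and Ccne2 to Ska2 (0.986), Odc1 (0.978) and the mitotic cyclin Ccnb2 (0.972). E2f1 had no gene above 0.95, with Prkag2 nearest at 0.944, and Cdkn1b had 1, Mtrex at 0.970.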

How the data were processed

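The deposited matrix held UMI counts per gene and barcode, whole numbers and not normalized by the authors. Its header names CellRanger 8.0.1. The submitters' processing notes name mm10 and Scanpy 1.8.2 without a role. Which of the 3 libraries (gene expression, barcode, scar) supplied the reads is not given in the sources used here, and the matrix counts here as 1 sample. Counts were summed over classes of cells and scaled to CPM with Python 3.11.15, numpy 2.4.6 and scipy 1.17.1, with exact Poisson, Clopper-Pearson and conditional binomial intervals. Lineage classes were mesenchymal-marker (at least 3 mesenchymal and no more than 0.5 times as many epithelial UMIs), epithelial-marker (at least 3 epithelial and at most 1 mesenchymal), both sets (at least 2 of each otherwise) and few markers. Replication-gene cells had at least 2 replication and at most 1 mitosis UMIs, mitosis-gene cells at least 3 mitosis and at most 1 replication UMIs, and cells with both lists at least 3 and 2. Genes defining a class were left out of pathway counts there. No doublet caller was run. The pathway genes named are up to 3 per direction with the largest ratio past the fold, and for each member the 3 most similar profiles were sought. A gene that this rule takes is not reported here. Further CDK inhibitors and pathway values were chosen after their values were seen. The members and lists were chosen with earlier results of these data known. Alternatives covered cell filters, thinning, the highest-UMI cells, marker lists and minimums, library total, weighting and fold. The calling steps were tested on simulated data.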

Additional observations from a re-analysis of the deposited data

How the results depend on the processing

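No paired analysis was possible because there is 1 sample. The planned comparison of Mcm5-only mesenchymal-marker cells could not be made, since there were 0 such cells. Under thinning as an alternative the classes were drawn anew from the thinned counts, so its values mix lower depth with changed classes. Shares and splits of thinned cells given above kept the lineage classes of full depth. Counts of the 10 members past the fold changed as follows. Between the lineages the count went from 1 to 2 with cells thinned to 1500 UMIs, where Ccne1 joined at a ratio of 0.320, and to 3 at a fold of 1.5, and among cells without a cycling-marker UMI from 1 to 4 at a fold of 1.5. For cycling mesenchymal-marker cells it went from 2 to 1 when thinned, without Vim and Krt14 in the lists and with equal weight per cell, and to 0 without the 10% of cells with the most UMIs. For Mcm5-only cells it went from 3 to 6 at a minimum of 2 UMIs, which left 2 cells, and at a fold of 1.5, and for mitosis-gene against replication-gene cells from 2 to 5 at a fold of 1.5. Pathway counts at a fold of 1.5 went from 15 to 25 between the lineages, from 8 to 14 without a cycling-marker UMI and from 18 to 28 for cycling mesenchymal-marker cells, where they were 9 when thinned and 10 in cells without an epithelial marker UMI, an alternative chosen after seeing the data. The remaining 60 member counts and 65 pathway counts were within 1.5 times their main value. The Ccnd1 ratio between the lineages stayed between 0.273 and 0.339, that of Cdk6 between 1.59 and 1.805, and for cycling epithelial-marker cells Ccne1 stayed between 2.02 and 2.61 and Ccne2 between 3.89 and 4.47. Of the member ratios, each counted once per alternative, 10 passed the fold only under an alternative and 10 lost it. A further 40 ratios fell outside their main interval and 563 stayed within it. Of the member levels, 19 fell outside their main interval and 151 stayed within it. The Ccne1 ratio of replication-gene cells was 1.67 when thinned. The cause of these changes was not tested. Depth limits E2f1, Ccne1 and Ccne2, which had 263 to 479 UMIs in all.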
